A study of Mus musculus with 9 samples.

Results

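The genes described here make, recycle or consume NAD, or break down tryptophan, in macrophages that were differentiated from mouse bone marrow with the growth factor M-CSF. They were chosen by name, with earlier results of these data known, and were taken from the arrays as the probe sets annotated to 1 such gene alone. Of 9 genes named, 8 were found, with 13 probe sets among 45037 tested, and 8 genes among 18193. Cd38, the ninth, was not analysed here. Marrow came from BALB/c mice of 8 to 10 weeks, was cultured for 7 days and was held overnight in 1% serum with M-CSF in all groups. In TNC + TLR4i, 3 arrays, cells received 3 µM TAK-242, an inhibitor of Toll-like receptor 4 (TLR4), for 1 h, followed by 6 h with the matrix glycoprotein tenascin C (TNC) at 2 µg/ml. In TNC + vehicle, 3 arrays, 0.1% DMSO took the place of TAK-242. For untreated cells, 3 arrays, the labels name no addition, so that vehicle and TNC cannot be told apart in the contrast with them. No array was labelled as inhibitor alone, vehicle alone or endotoxin control. The arrays within a group are labelled biological replicates, but nothing says that they came from separate mice, so the tests measure the spread between these samples, which may be technical.

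NAD carries electrons in metabolism and is also cut by enzymes that use it as a substrate. Cells rebuild it from nicotinamide through NAMPT, which makes nicotinamide mononucleotide, and from nicotinic acid through NAPRT, and NMNAT1 completes NAD in the nucleus. BST1 (CD157) and CD38 cleave NAD at the cell surface, and the sirtuins SIRT1 and SIRT2 spend it to remove acyl groups from proteins. IDO1 opens the tryptophan ring and starts the kynurenine route, in which KYNU is a later enzyme and from which NAD can be built anew. In inflamed macrophages NAMPT is a known part of the response to Toll-like receptor ligands, and IDO1 is best known as a gene induced by interferon gamma.

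Values are log2 signals after robust multiarray averaging (RMA), so that a difference of 1 is a doubling, and they are compared between groups for 1 probe set at a time and never between genes. Where a gene had several probe sets, the brightest one on average (over the 9 arrays) represents it. All probe sets are given for the members and, where they bear on a call, for the called genes of the pathway, while other genes are given by that probe set alone. "Called" means a limma adjusted p under 0.05 over all probe sets and a change of at least 1.5-fold. A probe set is described as dim where its mean lies below 6.72, the median over all probe sets. There RMA leaves a floor, and folds are understated. In bulk RNA, fewer cells of a type and less RNA per cell cannot be told apart.

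The arrays had medians from 6.72 to 6.74. All 8 macrophage markers measured were above the dim level, with Csf1r at 14.07 to 14.19 and Adgre1 at 12.89 to 13.22. Of these 8, Fcgr1 was called higher with TNC (0.94) and lower with the inhibitor (-1.15), and Cd14 was called lower with the inhibitor (-0.61). The remaining macrophage markers were not called in any comparison. Markers of B cells, T cells, NK cells, dendritic cells and neutrophils were dim in 13 of 20 cases, and 0 of the 20 were called in any comparison. Stromal markers were present, with Col1a2 at 13.12 to 13.37, and their mean over 6 genes was 9.62 to 9.95 in TNC + TLR4i, 9.76 to 9.98 in TNC + vehicle and 9.80 to 9.99 in untreated arrays. TNC + vehicle replicate 1 stood apart in endothelial markers, of which 7 of 8 exceeded their average in replicates 2 and 3 of that group, by a median of 0.93. The mean of those 8, with Kdr among them, was 6.43 to 6.47 in TNC + TLR4i, 6.84 to 7.53 in TNC + vehicle and 6.55 to 6.57 in untreated arrays. Of the 8, 6 were dim. Kdr, which was not dim, was called higher with TNC (1.63) and lower with the inhibitor (-1.96). Its signal differed by -0.58 in replicate 1 from the others of its group, so the rise of Kdr was not in replicate 1 alone. The other 7 markers were higher in replicate 1 than in replicates 2 and 3, by 0.34 (Tie1) to 1.18 (Emcn), and were not called with TNC. Cdh5 was called lower with the inhibitor (-0.63). The part of these markers in the results was not tested. Values without that array are given where it matters. The 3' minus 5' signal of the actin control, a sign of RNA integrity, was 0.30 to 0.37 in TNC + TLR4i, 0.20 to 0.22 in TNC + vehicle and 0.29 to 0.32 in untreated arrays. That of the Gapdh control was -0.32 to -0.26 in TNC + TLR4i, -0.33 to -0.30 in TNC + vehicle and -0.35 to -0.33 in untreated arrays, and did not set TNC + vehicle apart. The part of these controls in the results was not tested.

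Nampt and Bst1 were the members called with TNC. Nampt rose 2.74-fold and Bst1 2.52-fold, and with the TLR4 inhibitor both fell, to levels whose difference from untreated cells did not pass the test. Naprt, Sirt1 and Sirt2 were lower with TNC by less than 1.5-fold, and Ido1 and Kynu stayed dim in every group. In TNC + vehicle against untreated, 2 of the 8 members were called higher and 0 lower, where 3.74% of all genes were called higher and 4.05% lower. In TNC + TLR4i against TNC + vehicle, 2 members were called lower and 0 higher, where 4.05% of all genes were called lower and 4.25% higher. In TNC + TLR4i against untreated, limma called 0 members, and of all genes 0.0605% were called higher and 0.198% lower. Before adjustment, p was under 0.05 for 1 lower and 0 higher members, and the share of all genes at that level was not computed. Any pair of these comparisons shares the arrays of 1 group. With the adjusted p alone and no minimum fold, 2 members were higher and 3 lower in the first comparison, where 12.1% of all genes were higher and 16.0% lower, and 3 were higher and 2 lower in the second, where 17.1% were higher and 11.4% lower. In the third 0 members passed, where 0.297% of all genes were higher and 0.506% lower. The groups did not overlap for 6 of 8 members in the first comparison (42.3% of all genes), 6 in the second (42.2%) and 1, Sirt2, in the third (15.2%).

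**Figure D1:**
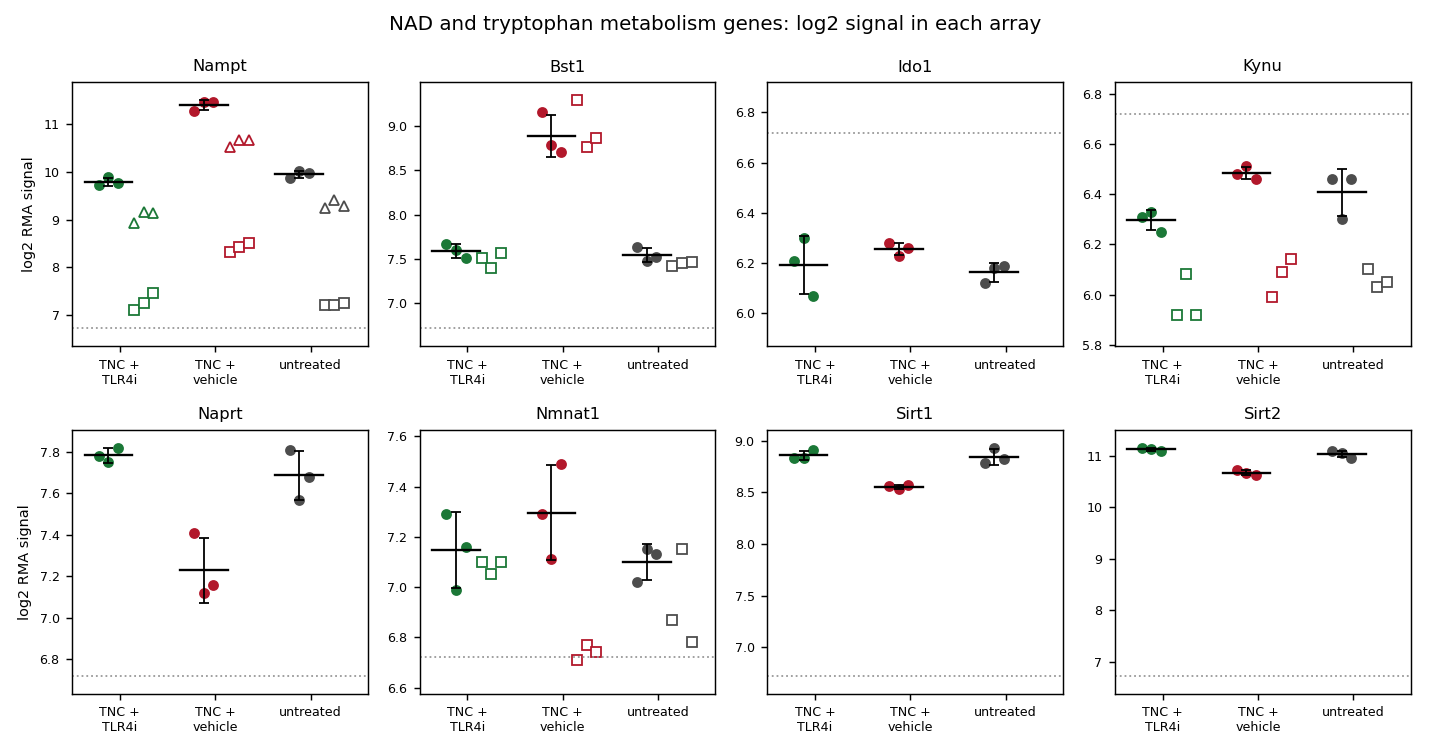
Log2 RMA signal (vertical axis, own scale per gene) of the 8 members in each array, by group. Filled circles are the representative probe set with its mean (wide line) and SD (bars, n = 3), open symbols are the other probe sets of the gene, and the dotted line is the median of all probe set means, 6.72. Nampt and Bst1 stand higher in TNC + vehicle in all their probe sets, and Ido1 and Kynu lie below the dotted line in all 9 arrays.

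Nampt, the enzyme that sets the pace of NAD salvage from nicotinamide, is annotated at chr12:32820335-32853369 (GRCm38.p6). Its promoter is shown because it is the member with the largest change in its representative probe set. The 300 bases run from 250 before to 50 after the start site on the plus strand (chr12:32820085-32820384), as taken from RefSeq, and capitals mark GCGTG or its reverse complement CACGC, the core of the dioxin response element that the aryl hydrocarbon receptor binds.
Nampt promoter: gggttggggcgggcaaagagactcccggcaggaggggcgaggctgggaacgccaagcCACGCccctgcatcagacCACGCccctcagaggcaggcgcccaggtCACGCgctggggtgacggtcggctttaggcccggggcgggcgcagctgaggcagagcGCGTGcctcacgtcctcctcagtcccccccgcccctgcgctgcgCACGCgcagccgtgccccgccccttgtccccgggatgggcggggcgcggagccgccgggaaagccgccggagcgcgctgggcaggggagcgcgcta
It held 5 such cores, at -193, -175, -147, -90 and -46 (first base on the strand shown, with the start site at 0). At least 1 was held by 32.4% of 32851 mouse promoters of this length. The share that held as many as 5, or a share among promoters of like G and C content, was not computed. The other motifs searched on both strands were not found in this window: the core of the interferon-stimulated response element (3.44% of promoters), TTCNNNGAA, a STAT site (8.3%), CACGTG, an E-box (7.15%), and the kappaB consensus (8.46%). G and C made up 76.3% of the window, against a median of 52.7% over all promoters.

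The Nampt signal was 11.28, 11.46 and 11.47 in the 3 TNC + vehicle arrays, against 9.87, 10.02 and 9.97 in the untreated arrays. The lowest TNC array lay above the highest untreated one. Nampt thus rose by 1.45 ± 0.08 (log2 difference, SE; limma adjusted p = 9.99e-08). With the inhibitor the 3 arrays read 9.73, 9.89 and 9.76, below all TNC + vehicle arrays, and Nampt fell by 1.61 ± 0.08 (adjusted p = 2.32e-08), 3.05-fold. Against untreated cells the TNC + TLR4i arrays differed by -0.16, with a 95% interval of -0.31 to -0.01 (adjusted p = 0.587). In order of level TNC + vehicle was highest, and in this probe set the TNC + TLR4i and untreated arrays overlapped.

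Its other probe sets also had their highest values in TNC + vehicle. The first of them averaged 9.07 ± 0.13 in TNC + TLR4i, 10.63 ± 0.09 in TNC + vehicle and 9.32 ± 0.08 in untreated arrays (SD, n = 3 each), and the second averaged 7.27 ± 0.18 in TNC + TLR4i, 8.42 ± 0.10 in TNC + vehicle and 7.23 ± 0.03 in untreated arrays. With TNC they rose 2.48-fold and 2.29-fold, and with the inhibitor they fell 2.94-fold and 2.22-fold, all called. Over the 9 arrays the Nampt probe sets correlated at 0.98 to 1.00. Among all genes, those whose pattern over the 9 arrays was most like that of Nampt were the peptide transporter Tap1 (r = 0.9992), the immunoproteasome subunit Psmb10 (0.9988) and the ubiquitin ligase Marchf5 (0.9986). Out of 18193 genes, 858 correlated with Nampt above 0.95, and every such value rests on the same 9 arrays in 3 groups.

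Bst1, which encodes a surface enzyme that cleaves NAD and was first described on bone marrow stromal cells, lies next to Cd38 on chromosome 5 (chr5:43818880-43843468). Its representative probe set read 9.15, 8.78 and 8.71 in TNC + vehicle arrays, against 7.64, 7.48 and 7.52 in untreated arrays. The groups did not overlap, and replicate 1 was the highest of the TNC arrays. Bst1 rose by 1.33 ± 0.10 (limma adjusted p = 2.22e-06). In TNC + TLR4i arrays it read 7.67, 7.60 and 7.51, so that it fell by 1.29 ± 0.10 against TNC + vehicle (adjusted p = 1.87e-06), and it differed from untreated cells by 0.04, with a 95% interval of -0.11 to 0.20 (adjusted p = 0.941). The second probe set averaged 7.50 ± 0.08 in TNC + TLR4i, 8.97 ± 0.28 in TNC + vehicle and 7.45 ± 0.03 in untreated arrays (SD, n = 3), so that it rose by 1.52 with TNC and fell by 1.48 with the inhibitor, both called. Bst1 was 0.40 and 0.48 higher in TNC + vehicle replicate 1, the array with high endothelial markers, than in the others of its group. Without that array the representative probe set rose by 1.20 with TNC and fell by 1.16 with the inhibitor (limma adjusted p = 1.31e-06 and 7.93e-07), both still called.

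The genes closest to Bst1 in pattern were the Notch ligand Jag1 (r = 0.9944 over 9 arrays), Papss2 (0.9911), which makes the sulphate donor of the cell, and the transcription factor St18 (0.9908). Jag1 and Papss2 rose by 1.20 and 1.29 with TNC and fell by 1.18 and 1.27 with the inhibitor. St18 differed by 0.49 with TNC and by -0.47 with the inhibitor, both under 1.5-fold. For Bst1, 420 of the 18193 genes correlated above 0.95.

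Naprt, which starts NAD synthesis from nicotinic acid (chr15:75890963-75894481), was lower with TNC. Its signal was 7.41, 7.12 and 7.16 in TNC + vehicle arrays, against 7.81, 7.57 and 7.68 in untreated arrays, without overlap. The difference was -0.46 ± 0.09, or 1.37-fold lower, which passed the adjusted p (0.00331) but not the fold threshold. In TNC + TLR4i arrays Naprt read 7.78, 7.75 and 7.82, or 0.55 ± 0.08 above TNC + vehicle (adjusted p = 0.000354), again short of 1.5-fold. Naprt was 0.27 higher in TNC + vehicle replicate 1 than in the others of its group, and without that array the inhibitor difference was 0.64 and was called (adjusted p = 5.38e-05). Against untreated cells TNC + TLR4i differed by 0.10 (95% interval -0.06 to 0.25).

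Nmnat1, the nuclear enzyme that turns nicotinamide mononucleotide into NAD (chr4:149467569-149485210), had probe sets that differed in direction. Its representative probe set read 7.29, 7.11 and 7.49 in TNC + vehicle and 7.02, 7.15 and 7.13 in untreated arrays, which overlapped (0.20 ± 0.09; adjusted p = 0.165). The other probe set read 6.71, 6.77 and 6.74 in TNC + vehicle and 6.87, 7.15 and 6.78 in untreated arrays, a difference of -0.20 in the opposite direction (adjusted p = 0.151). With the inhibitor this second probe set read 7.10, 7.05 and 7.10 and was 0.34 ± 0.06 above TNC + vehicle (adjusted p = 0.0018), while the representative one, at 7.29, 6.99 and 7.16, differed by -0.15 (adjusted p = 0.371). Against untreated cells the representative probe set differed by 0.05 in TNC + TLR4i (95% interval -0.13 to 0.22). The probe sets correlated at -0.31 over the 9 arrays, and the direction of Nmnat1 therefore depended on the probe set chosen.

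**Figure D2:**
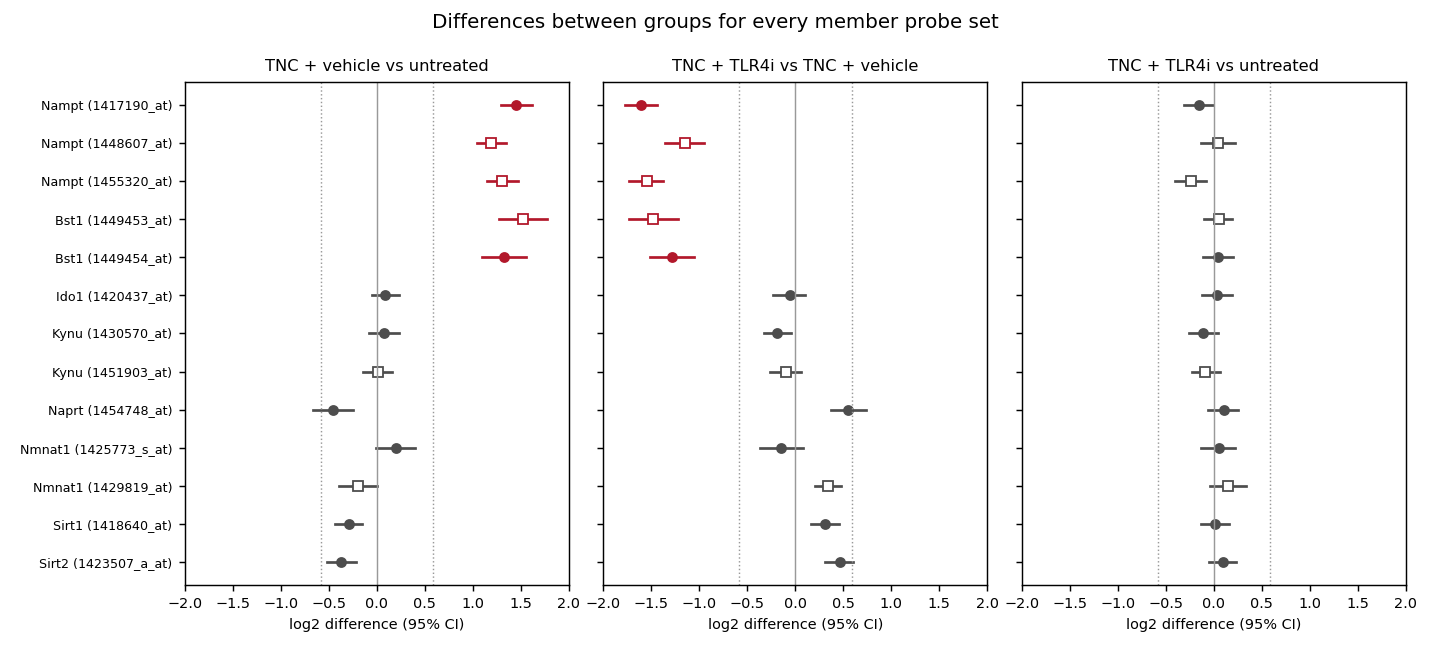
Log2 differences (horizontal axis) with 95% confidence intervals for all 13 member probe sets in the 3 comparisons. Filled circles are representative probe sets, open squares the others, red marks called differences, and dotted lines mark 1.5-fold. All 5 probe sets of Nampt and Bst1 lie beyond the dotted lines in the first and second panels, and none of the 13 does in the third.

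Both sirtuins measured as members were lower with TNC, by less than 1.5-fold. Sirt1, a nuclear deacetylase (chr10:63319005-63339035), read 8.56, 8.53 and 8.57 in TNC + vehicle, against 8.78, 8.93 and 8.82 in untreated arrays, a difference of -0.29 ± 0.07 (limma adjusted p = 0.00739). In TNC + TLR4i it read 8.83, 8.83 and 8.91, or 0.31 ± 0.07 above TNC + vehicle (adjusted p = 0.00446). Sirt2, a mainly cytoplasmic deacetylase (chr7:28766752-28788665), read 10.72, 10.66 and 10.62 in TNC + vehicle, against 11.09, 11.05 and 10.96 in untreated arrays, or -0.37 ± 0.07 (adjusted p = 0.00181). With the inhibitor the Sirt2 signal was 11.15, 11.13 and 11.09, which was 0.46 ± 0.07 above TNC + vehicle (adjusted p = 0.000258). For both genes the TNC + vehicle arrays lay below every other array. The TNC + TLR4i and untreated groups, next to each other in the order of levels, differed by 0.01 for Sirt1 (95% interval -0.13 to 0.16) and 0.09 for Sirt2 (-0.05 to 0.23).

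The Sirt2 promoter on chromosome 7 is shown beside that of Nampt because it held the match to the kappaB consensus that the Nampt window lacked (chr7:28766502-28766801, plus strand, GRCm38.p6, from RefSeq). Capitals mark the overlapping kappaB matches and, after them, a CACGC.
Sirt2 promoter: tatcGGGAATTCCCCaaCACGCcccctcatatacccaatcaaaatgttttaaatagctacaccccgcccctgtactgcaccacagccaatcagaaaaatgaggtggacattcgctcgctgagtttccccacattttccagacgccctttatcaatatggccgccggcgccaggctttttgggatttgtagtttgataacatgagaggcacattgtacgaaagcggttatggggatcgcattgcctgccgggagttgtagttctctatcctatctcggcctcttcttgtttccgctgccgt
The kappaB matches began at -246 and -245. RefSeq promoters of this kind were found for 4 of the 8 members, Nampt, Sirt1, Sirt2 and Nmnat1. Sirt1 held 2 E-boxes, at -115 and -43, and 2 GCGTG cores, while Nmnat1 held none of the motifs in either of its windows. A match is a run of letters and not a measured binding site.

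Ido1, the interferon-induced dioxygenase that starts tryptophan breakdown (chr8:24584133-24596952), was dim in all groups. It read 6.28, 6.23 and 6.26 in TNC + vehicle and 6.12, 6.18 and 6.19 in untreated arrays, a difference of 0.09 (95% interval -0.05 to 0.23; limma adjusted p = 0.351). In TNC + TLR4i it read 6.21, 6.30 and 6.07, which overlapped both other groups. The TNC + vehicle arrays of Ido1 lay above the untreated ones without overlap, but the difference did not pass the test. Kynu, which splits kynurenine derivatives further down (chr2:43555258-43683048), averaged 6.29 ± 0.04 in TNC + TLR4i, 6.48 ± 0.03 in TNC + vehicle and 6.41 ± 0.09 in untreated arrays (SD, n = 3), with a difference of 0.08 for TNC (adjusted p = 0.513) and -0.19 for the inhibitor against TNC + vehicle (adjusted p = 0.0567). Its second probe set lay still lower, between 5.97 and 6.07 in group means.

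No call was made in the rest of the kynurenine route. Of 9 further enzymes measured of 10 listed, 6 were dim and 0 were called in any of the 3 comparisons by limma. Of all genes, 7.78% were called with TNC, 8.3% with the inhibitor against TNC + vehicle, and 0.258% in TNC + TLR4i against untreated. The share of all genes with an unadjusted p under 0.05 was not computed. In this route p before adjustment was under 0.05 for 1 higher and 2 lower genes with TNC. It was so for 1 higher and 1 lower with the inhibitor against TNC + vehicle, and 0 higher and 1 lower in TNC + TLR4i against untreated. The lower ones with TNC were Kmo, which hydroxylates kynurenine (-0.36; adjusted p = 0.00674), and the aminotransferase Kyat1 (-0.37; adjusted p = 0.0257), both under 1.5-fold. Kmo differed by 0.10 with the inhibitor against TNC + vehicle (limma adjusted p = 0.416). In TNC + TLR4i it stayed below all untreated arrays (-0.26; adjusted p = 0.284). Kyat1 was dim and is given by 1 of its 4 probe sets. Ido2 and Tdo2, the other enzymes that open the tryptophan ring, differed by 0.01 and 0.06 with TNC (adjusted p = 0.931 and 0.676).

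**Figure D3:**
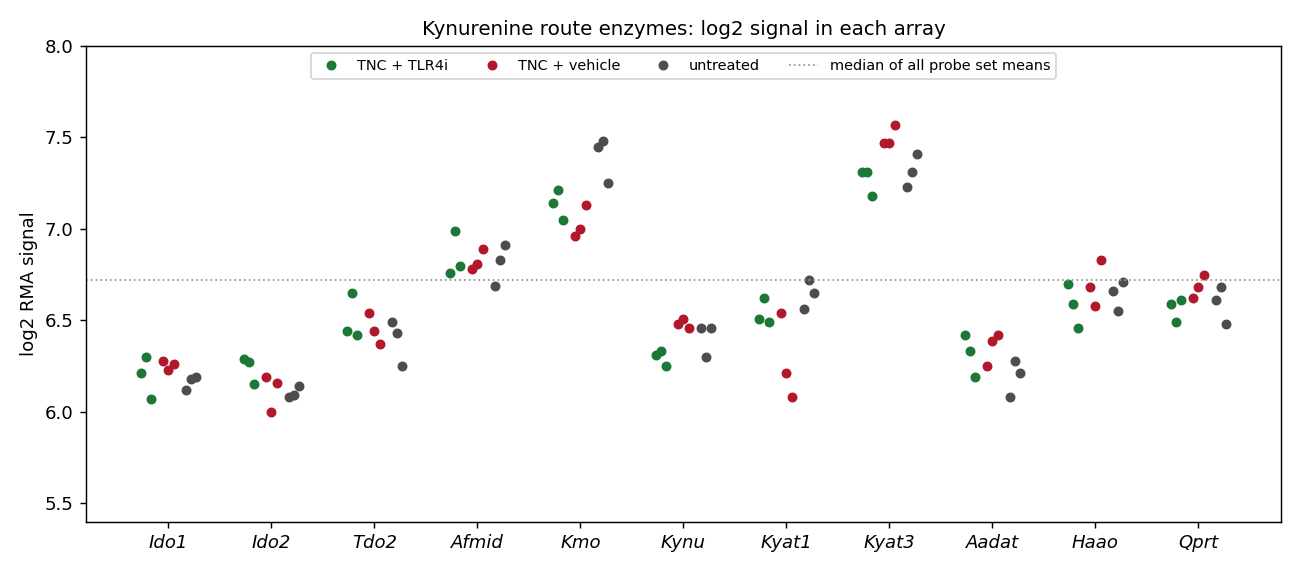
Log2 RMA signal (vertical axis) of 11 kynurenine route enzymes in each of the 9 arrays, coloured by group, with the median of all probe set means, 6.72, as a dotted line. Levels are not comparable between genes. Ido1, Ido2, Tdo2, Kynu and Aadat lie below the line in all arrays, and Kmo and Kyat1 are lower in TNC + vehicle than in untreated arrays.

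Beside the members, 55 other genes linked to NAD and tryptophan metabolism were measured, out of 59 listed, and 15 were dim. They include receptors, channels and target genes, from lists for the aryl hydrocarbon receptor and for ADP-ribose signalling, and are not all enzymes of metabolism. Of the 55, 3 were called higher and 5 lower with TNC (14.5%, against 7.78% of all genes in either direction), and 4 were called higher and 4 lower with the inhibitor against TNC + vehicle (14.5%, against 8.3%). These shares cannot show an excess of calls, because the lists were chosen with earlier results of these data known. The share of dim genes over all genes was not computed. The median difference of the 55 was 0.03 with TNC and 0.05 with the inhibitor, where over all genes it was 0.01 and 0.00. In TNC + TLR4i against untreated limma called 0 of them (0.258% of all genes). An unadjusted p under 0.05 was reached by 6 that were higher and 7 that were lower, and the share of all genes at that level was not computed. The other 4 listed genes were not analysed here.

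In the list of other salvage genes and NAD kinases, which leaves out Nampt and the other members, the largest change was that of Pnp. Pnp is the phosphorylase that frees bases, nicotinamide among them, from nucleosides. It read 13.01, 13.20 and 13.16 in TNC + vehicle, against 11.62, 11.72 and 11.73 in untreated arrays, a 2.70-fold rise (1.43 ± 0.07; limma adjusted p = 8.79e-08). In TNC + TLR4i it read 11.22, 11.39 and 11.34, 3.50-fold below TNC + vehicle (adjusted p = 8.66e-09) and below all untreated arrays (-0.37 against untreated; adjusted p = 0.0322, short of 1.5-fold). Pnp has a close neighbour of similar name, Pnp2, and whether the probes tell them apart was not checked. Of the 13 genes of this list, Pnp was the 1 called higher with TNC, and 2 were called lower (3.74% and 4.05% of all genes). These 2 were the mitochondrial NAD kinase Nadk2 (-0.68) and Nnt (-0.74), the mitochondrial transhydrogenase that passes electrons between NAD and its phosphorylated form. Nadk2 read 7.79, 7.62 and 7.64 in TNC + vehicle, against 8.41, 8.37 and 8.32 in untreated arrays, and was 0.69 higher with the inhibitor than in TNC + vehicle (adjusted p = 1.9e-05). Nnt varied widely with TNC, at 9.31, 9.91 and 9.64 in TNC + vehicle, against 10.35, 10.33 and 10.41 in untreated arrays. In TNC + TLR4i it read 10.13, 10.22 and 10.22, between the other groups without overlap (-0.17 against untreated; limma adjusted p = 0.472). Its difference for the inhibitor, 0.57, missed 1.5-fold but was called without TNC + TLR4i replicate 1 (0.60), TNC + vehicle replicate 2 (0.72) or TNC + vehicle replicate 3 (0.59). Another Nadk2 probe set was called with TNC (-0.67), and both other Nadk2 probe sets were dim and not called. Of the other Nnt probe sets 0 were called. Averaged over probe sets the TNC differences were -0.40 for Nadk2 and -0.38 for Nnt, and neither was called. The cytosolic kinase Nadk differed by 0.22 (adjusted p = 0.0411).

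Of 10 other enzymes that consume NAD, 1 was called lower and 0 higher with TNC (4.05% and 3.74% of all genes). By the adjusted p alone 5 were lower and 0 higher (16.0% and 12.1% of all genes). Their median difference was -0.22, where over all genes it was 0.01. The called one was Sirt3, the main mitochondrial deacetylase, which read 7.19, 7.02 and 7.26 in TNC + vehicle, against 8.07, 7.97 and 8.10 in untreated arrays (-0.89 ± 0.08; limma adjusted p = 5.36e-06). With the inhibitor it read 7.91, 8.15 and 7.92, 0.84 above TNC + vehicle (adjusted p = 1.92e-05). Sirt7 and the DNA damage sensor Parp1 differed by -0.40 and -0.50 with TNC (adjusted p = 0.00104 and 0.000455), below the fold threshold. Parp1 was called higher with the inhibitor against TNC + vehicle at 0.59, just past 1.5-fold, and the call was lost without TNC + TLR4i replicate 3 (0.57), TNC + vehicle replicate 2 (0.57) or TNC + vehicle replicate 3 (0.56), after cyclic loess (0.53) and with its probe sets averaged (0.58). Another 2 of its probe sets were called in both comparisons, at -0.65 and -0.74 with TNC.

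**Figure D4:**
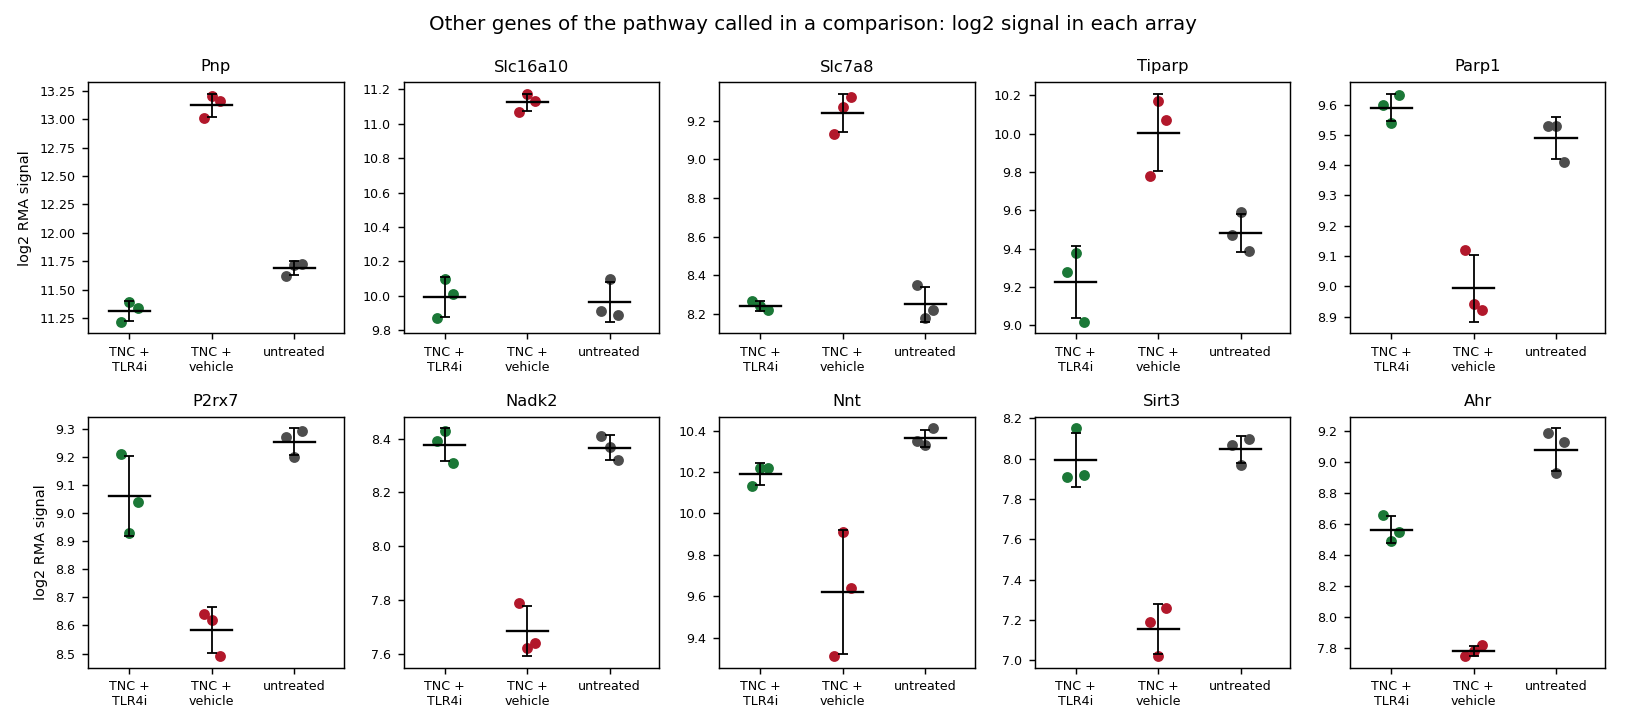
Log2 RMA signal (vertical axis, own scale per gene) of the 10 other pathway genes called in at least 1 comparison, in each array (points), where wide lines are means over a group and bars its SD (n = 3), ordered by their difference with TNC. Pnp, Slc16a10, Slc7a8 and Tiparp have higher means in TNC + vehicle than in both other groups, and the rest lower ones. Ahr and Nnt in TNC + TLR4i lie between the other groups without overlap.

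Slc16a10 and Slc7a8, which carry amino acids across the cell membrane, rose with TNC. Of 9 genes of tryptophan transport and use, 2 were called higher with TNC and 0 lower (3.74% and 4.05% of all genes). By the adjusted p alone 4 were higher and 1 lower (12.1% and 16.0% of all genes). Slc16a10, which carries aromatic amino acids, read 11.07, 11.17 and 11.13 in TNC + vehicle, against 9.91, 10.10 and 9.89 in untreated arrays (1.16; limma adjusted p = 4.47e-07), and fell by 1.13 with the inhibitor. Its other 3 probe sets differed by 1.09, 0.55 and 0.31 with TNC, of which the first was called, and by -1.26, -0.66 and -0.34 with the inhibitor, of which the first and second were called. Slc7a8, a transporter of large neutral amino acids, rose by 0.99 with TNC and fell by 1.00 with the inhibitor. Wars, the tryptophan tRNA synthetase, differed by 0.42 with TNC and by -0.49 with the inhibitor (adjusted p = 0.00351 and 0.00069), both under 1.5-fold.

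Ahr, the receptor that kynurenine can activate, had the most negative TNC difference of the 55 genes. It read 7.75, 7.78 and 7.82 in TNC + vehicle, against 9.19, 8.93 and 9.13 in untreated arrays, a 2.46-fold fall (-1.30 ± 0.08; limma adjusted p = 2.59e-07). In TNC + TLR4i it read 8.66, 8.49 and 8.55, which was 0.78 above TNC + vehicle (adjusted p = 5.07e-06) and differed from untreated cells by -0.52 ± 0.08 (adjusted p = 0.0102), short of 1.5-fold. All 3 groups were separate. Without untreated replicate 2 the difference from untreated cells was -0.60 and was called. A second, dim Ahr probe set differed by -0.23 with TNC (adjusted p = 0.0535) and by -0.10 with the inhibitor (adjusted p = 0.454), and averaged over both probe sets the inhibitor difference was 0.34 and was not called. Among genes that the receptor is known to induce, Tiparp was higher with TNC by 0.52 (adjusted p = 0.00214, under 1.5-fold; 0.64 and called without TNC + vehicle replicate 1) and fell by 0.78 with the inhibitor. The other Tiparp probe sets differed by 0.48 and 0.49 with TNC, neither called, and by -0.57 and -0.62 with the inhibitor, of which the second was called. Cyp1b1 differed by 0.26 and Cyp1a1, which was dim, by 0.15 with TNC (adjusted p = 0.01 and 0.227). Ahrr differed by -0.03 and Nqo1 by 0.11 with TNC (adjusted p = 0.923 and 0.361), and by -0.34 and 0.13 with the inhibitor (adjusted p = 0.21 and 0.27).

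Among 7 genes of ADP-ribose signalling, 1 was called lower and 0 higher with TNC (4.05% and 3.74% of all genes). The called one was P2rx7 (-0.67; limma adjusted p = 1.96e-05), the ATP-gated channel of macrophages that surface ADP-ribosylation can also open in mouse T cells. It read 8.64, 8.62 and 8.49 in TNC + vehicle, against 9.27, 9.20 and 9.29 in untreated arrays. In TNC + TLR4i it read 9.21, 8.93 and 9.04, which overlapped the untreated arrays. The difference for the inhibitor, 0.47, was under 1.5-fold. Its other probe sets differed by -0.59 (called) and -0.22 (not called) with TNC, and averaging the 3 probe sets took the TNC difference to -0.49, which was not called. Trpm2, the channel gated by ADP-ribose, differed by 0.24 (adjusted p = 0.14).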

How the data were processed

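RNA was measured on 9 Affymetrix whole-genome mouse arrays. The values deposited by the authors are log2 signals, made with RMA in the Chipster software, and ran from 5.44 to 14.69. RMA gives all arrays the same distribution, so a change of total RNA would be hidden, and no detection call was used. After 64 control probe sets were left out, 45037 were tested, of which a platform table gave 34945 a single gene. Each pair of groups was fitted on its 6 arrays with lmFit and eBayes of limma 3.58.1 (R 4.3.3). Tests were two-sided, p-values were adjusted by Benjamini and Hochberg's method over all 45037 probe sets, and the fit was tested on simulated data. The number of arrays limits the precision.

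The members, the lists of other pathway genes and of cell markers, and the rules were chosen with earlier results of these data known. Named are all members, the called genes of each list (at most 6), and the 3 genes most like each called member by Pearson's r, and any other gene was named after its values were seen. Promoters are from RefSeq (GRCm38.p6). A planned comparison of protein sequences was not run, and the list for ADP-ribose signalling was not named in the plan. Markers without a matching probe set were not used here. Alternatives were cyclic loess, a joint fit of 9 arrays, a block for the replicate number, a filter on dim probe sets, centred medians, eBayes with trend and robust settings, averaged probe sets, other thresholds, and each array left out.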

Additional observations from a re-analysis of the deposited data

How the results depend on the processing

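The calls of Nampt and Bst1 with TNC and with the inhibitor held under every alternative run, and the counts of 2, 2 and 0 members called changed to 5, 5 and 0 with no minimum fold, with Naprt, Sirt1 and Sirt2 added in the first and second comparisons. Leaving out each array gave 2 members with TNC, 2 to 3 with the inhibitor and 0 against untreated. For the other 55 genes, of which 8, 8 and 0 were called, averaging probe sets gave 5 and 5 in the first and second comparisons, no minimum fold gave 22, 26 and 2 (Pnp and Ahr), a minimum of 2-fold gave 3 and 2, and leaving out each array gave 8 to 9, 7 to 9 and 0 to 1. With probe sets averaged, the calls of Nadk2, Nnt and P2rx7 were lost with TNC and those of Nadk2, Parp1 and Ahr with the inhibitor. Cyclic loess gave 7 of the 55 with the inhibitor, without Parp1. Ido1 and Kynu have no value with dim probe sets left out. Of 306 recomputed member differences 299 kept their direction and their side of the threshold. Naprt became called at 0.64 as given above. Differences near 0 turned sign in 6 cases: Nmnat1 for the inhibitor with averaged probe sets (0.10), and, for TNC + TLR4i against untreated, Sirt1 after cyclic loess (-0.00), without TNC + TLR4i replicate 3 (-0.01) or untreated replicate 1 (-0.02), Ido1 without TNC + TLR4i replicate 2 (-0.02) and Nmnat1 without TNC + TLR4i replicate 1 (-0.02). Over all arrays left out in turn, the differences for TNC + TLR4i against untreated ran from -0.02 to 0.05 for Sirt1, -0.02 to 0.09 for Ido1 and -0.02 to 0.13 for Nmnat1. The cause was not tested.

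The labels do not say whether same-numbered arrays were paired. Deviations of same-numbered arrays correlated at -0.10 to 0.14 and those of different-numbered arrays at -0.12 to 0.10, which cannot settle it. With the replicate block the counts were 2, 2 and 0 members and 8, 8 and 0 other genes, and no call of a member changed. Ido1, Kynu and 6 of the 9 other kynurenine route enzymes were dim, where folds are understated.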
